A study of Homo sapiens with 6 samples.

Results

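The carriers described here import or exchange amino acids at the plasma membrane, and were measured in Du145, an established line from a human prostate carcinoma, with TSC2 lowered by a lentivirus. The 10 genes, SLC7A11, SLC7A5, SLC3A2, SLC43A1, SLC1A5, SLC1A4, SLC38A1, SLC38A2, SLC7A1 and SLC6A9, were taken by symbol, with the brightest probe set of each, out of 18417 genes measured. All 10 were found, on 11 probe sets, since SLC1A5 had another set. The arrays fell into 3 groups of 2. The shTSC2-adapted cells are called adapted from the knockdown by the labels, which do not say what the adaptation was. The shTSC2 cells carried the TSC2 hairpin, and the control cells have no treatment recorded, so effects of the virus cannot be told apart from those of lower TSC2. Every group grew in high-glucose medium with serum at 1% oxygen, with 24 h of hypoxia before RNA collection. The labels do not say whether the arrays of a group came from separate cultures, so a p-value covers the spread from array to array, possibly technical, and no more.

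Amino acids cross the plasma membrane through carriers with overlapping substrates. Cells combine uptake of glutamine and small neutral amino acids with exchangers that trade such amino acids for leucine and other large neutral ones. Another exchanger brings in cystine for glutamate. Several of the genes are known targets of ATF4, the transcription factor that responds to a lack of amino acids and other stress, and SLC7A11 is also a known target of NRF2, the factor that responds to oxidative stress. Leucine and arginine brought in by such carriers activate mTORC1, the growth kinase that TSC2 restrains.

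TSC2 checked the labels. Its log2 intensity was 6.54 and 6.48 in shTSC2-adapted, 6.67 and 6.55 in shTSC2, and 7.52 and 7.59 in control, so the hairpin groups lay below both control arrays. Against control the change was -1.04 in shTSC2-adapted (adjusted p = 0.0241) and -0.94 in shTSC2 (adjusted p = 0.00102). Of the markers of the line, KRT8 and KRT18, keratins of simple epithelia, were bright on every array (11.22 to 11.50), while PTPRC, which marks blood cells, was dim (3.49 to 3.58). None of 7 fibroblast and 4 endothelial markers passed in any comparison. Of 5 blood cell markers, CD68 (0.62) and FCER1G (0.62) rose in shTSC2 against control and FCER1G was lower in shTSC2-adapted than in shTSC2 (-0.68), and their part in the results was not tested. In bulk RNA, fewer cells of a type and less RNA per cell cannot be told apart. EGFR, EPCAM and KRT19, of 7 epithelial markers, fell in shTSC2 against control (-1.18, -1.28 and -1.38), and these and CDH1 were higher in shTSC2-adapted than in shTSC2 (0.79 to 1.65). Beside these marker calls, 13.9% of all genes were called lower and 6.87% higher in shTSC2 against control. The shares were 9.25% higher and 3.24% lower in shTSC2-adapted against shTSC2, and 0.261% in either direction in shTSC2-adapted against control. Values are log2 of RMA intensities, changes are differences of group means, and adjusted p-values are two-sided from limma over all 18417 genes with a threshold of 0.05.

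Promoter sequences from 250 bases before to 50 after the transcription start were held for 9 of the 10 genes in RefSeq's GRCh38.p14, SLC7A11 being the other. Both strands were searched for TGATGNAA (the core of C/EBP-ATF elements bound by ATF4), TGACNNNGC (the core of antioxidant response elements bound by NRF2), TGACGTCA (the cyclic AMP response element) and CACGTG (the E-box of MYC and related factors). TGATGNAA was in 3 of the 9 promoters (SLC3A2, SLC38A1 and SLC7A1) and in 2.54% of 14239 promoters of genes on the array. TGACNNNGC was in 3 (SLC3A2, SLC7A1 and SLC7A5) against 14.6%, CACGTG in 2 (SLC43A1 and SLC7A5) against 8.88%, and TGACGTCA in 0 against 2.65%. Shown are SLC7A5 and SLC7A1, which were lower in shTSC2, and SLC3A2, which was not, because each held matches to 2 of the motifs. Matches are in capitals and none overlap, each window is written along the gene's strand, and a match is a description of the letters only.
SLC7A5, chr16:87869458-87869757, minus strand: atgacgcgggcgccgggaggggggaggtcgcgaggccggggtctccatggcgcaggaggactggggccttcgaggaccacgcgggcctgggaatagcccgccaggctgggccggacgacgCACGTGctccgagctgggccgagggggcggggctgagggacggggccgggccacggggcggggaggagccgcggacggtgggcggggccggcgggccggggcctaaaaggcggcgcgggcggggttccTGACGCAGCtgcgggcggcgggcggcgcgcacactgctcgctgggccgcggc
SLC7A1, chr13:29595639-29595938, minus strand: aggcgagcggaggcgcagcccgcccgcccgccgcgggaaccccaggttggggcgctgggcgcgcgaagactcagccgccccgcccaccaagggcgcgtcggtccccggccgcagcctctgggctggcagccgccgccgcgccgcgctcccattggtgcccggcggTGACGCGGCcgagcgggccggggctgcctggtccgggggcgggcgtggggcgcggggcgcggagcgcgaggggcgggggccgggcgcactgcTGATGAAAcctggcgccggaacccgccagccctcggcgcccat
SLC3A2, chr11:62881449-62881748, plus strand: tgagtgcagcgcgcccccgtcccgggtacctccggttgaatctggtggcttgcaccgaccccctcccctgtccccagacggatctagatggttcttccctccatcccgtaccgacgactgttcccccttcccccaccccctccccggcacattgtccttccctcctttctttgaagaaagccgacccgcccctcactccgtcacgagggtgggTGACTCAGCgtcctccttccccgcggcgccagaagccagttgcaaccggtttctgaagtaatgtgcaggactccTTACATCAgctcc

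In shTSC2 against control, 5 of the 10 genes fell and none rose: SLC7A11, SLC38A2, SLC1A4, SLC7A1 and SLC7A5. Among all genes 13.9% were called lower and 6.87% higher in this comparison, or 20.8% in either direction. The median change of the 10 was -0.49, beside 0.03 over all genes. In shTSC2-adapted against shTSC2, 4 of the 10 were higher and none lower (SLC7A11, SLC1A4, SLC38A2 and SLC7A5), with a background of 9.25% called higher and 3.24% lower, and medians of 0.37 for the 10 and -0.03 for all genes. In shTSC2-adapted against control, limma called none of the 10, 1 had an unadjusted p under 0.05 (SLC43A1), and 0.261% of all genes were called (0.0543% higher, 0.206% lower). These comparisons share arrays, so they are not independent of each other. The 10 genes were chosen with earlier results of these data known, so their counts and medians are no test against all genes.

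**Figure D1:**
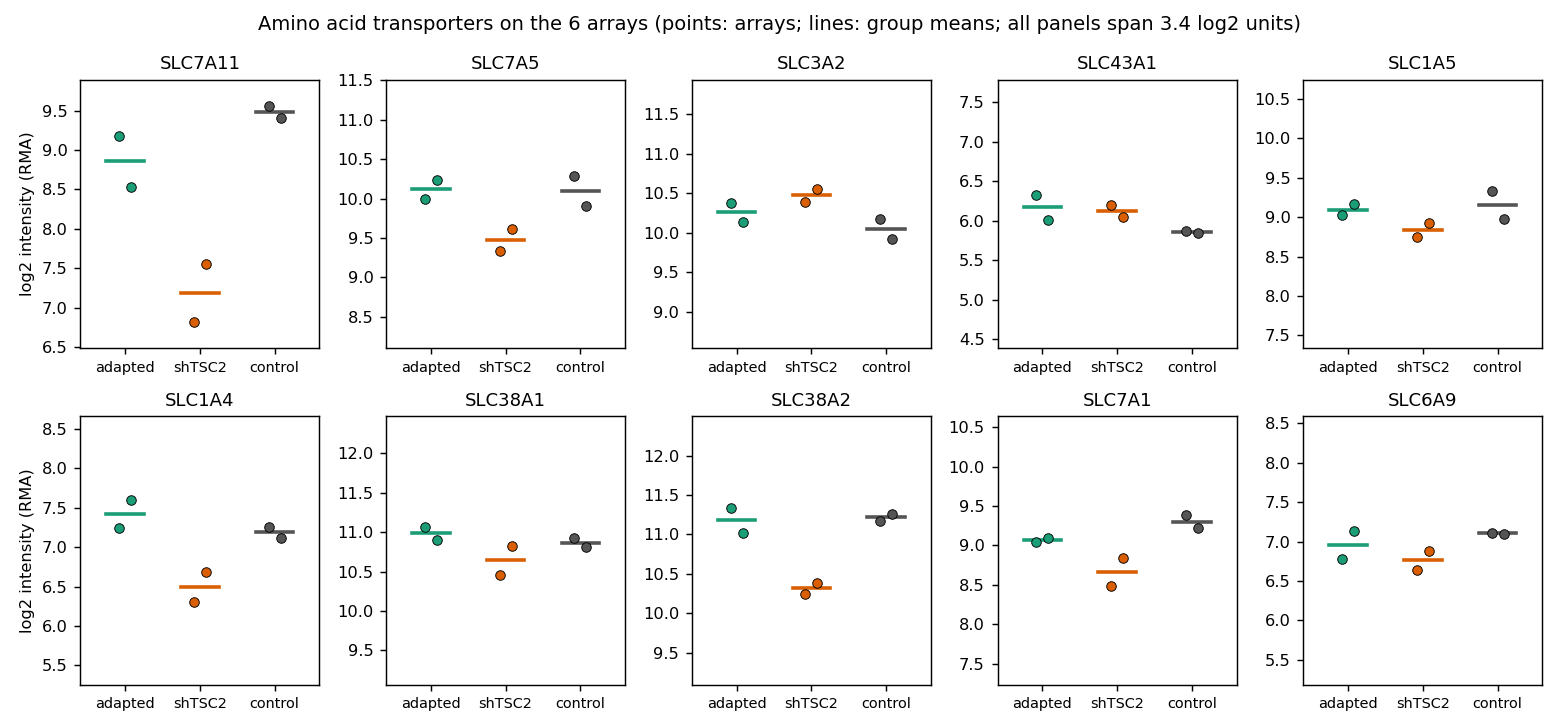
Log2 RMA intensity of the 10 transporters in the shTSC2-adapted, shTSC2 and control groups; points are the 2 arrays of a group and lines the group means. SLC7A11 spans the widest range, from 6.82 on an shTSC2 array to 9.56 on a control array, while SLC43A1 and SLC3A2 have no dip in shTSC2.

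SLC7A11 encodes xCT, the light chain that brings in cystine in exchange for glutamate and so feeds glutathione synthesis. Its log2 intensity was 9.18 and 8.53 in shTSC2-adapted, 6.82 and 7.55 in shTSC2, and 9.56 and 9.41 in control. Both shTSC2 arrays lay below all others, and the arrays of shTSC2 and of shTSC2-adapted differed among themselves (SD 0.52 and 0.46) more than those of control (SD 0.11). It fell in shTSC2, with a change of -2.30 (SE 0.27, 95% interval -2.94 to -1.66, adjusted p = 0.00165), a 4.92-fold lower intensity. Its change was below that of all but 0.0815% of the 18417 genes. The shTSC2-adapted level was 3.18-fold above that of shTSC2 (1.67, SE 0.27, adjusted p = 0.00970), and this did not pass when shTSC2-adapted 1 was left out (1.34, adjusted p = 0.0590). Against control, both shTSC2-adapted arrays were lower (-0.63, SE 0.27, 95% interval -1.27 to 0.01), which did not pass (adjusted p = 0.403).

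SLC7A5 encodes LAT1, the light chain that takes up leucine and other large neutral amino acids. Its values were 9.99 and 10.24 in shTSC2-adapted, 9.33 and 9.61 in shTSC2, and 10.28 and 9.91 in control. The shTSC2 arrays lay below the others, and the arrays of shTSC2-adapted stood within the range of control. SLC7A5 fell in shTSC2 (-0.62, SE 0.16, adjusted p = 0.0334), but the call ended without shTSC2 1 (adjusted p = 0.110), control 1 (0.222) or control 2 (0.0585). The shTSC2-adapted level was higher than that of shTSC2 (0.65, SE 0.16, adjusted p = 0.0426), but not with any array other than shTSC2 2 left out (adjusted p = 0.0639 to 0.187). Its difference between shTSC2-adapted and control was 0.02 (95% interval -0.36 to 0.40).

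SLC3A2 encodes 4F2hc, the heavy chain to which both xCT and LAT1 are bound at the cell surface. Unlike the light chains it was not lower in shTSC2: values were 10.38 and 10.14 in shTSC2-adapted, 10.39 and 10.56 in shTSC2, and 10.17 and 9.92 in control. Both shTSC2 arrays were above both control arrays, by 0.43 on average (SE 0.13, 95% interval 0.12 to 0.74), which did not pass (adjusted p = 0.0607). It passed with quantile normalization (0.53, adjusted p = 0.0320) or with dim genes left out (0.43, adjusted p = 0.0425). The difference between shTSC2-adapted and shTSC2 was -0.21 (adjusted p = 0.354). SLC43A1, or LAT3, carries leucine without a heavy chain. It was near the median of all probe sets (5.91), at 6.33 and 6.01 in shTSC2-adapted, 6.20 and 6.05 in shTSC2, and 5.87 and 5.84 in control. Both hairpin groups lay above control without passing (0.27, adjusted p = 0.188 in shTSC2, and 0.32, adjusted p = 0.368 in shTSC2-adapted).

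Among the carriers of glutamine and small neutral amino acids, each related pair held a gene that fell and a gene that did not pass. SLC38A2 encodes SNAT2, a sodium-coupled transporter known to be induced when amino acids are scarce. It had 11.34 and 11.02 in shTSC2-adapted, 10.25 and 10.39 in shTSC2, and 11.17 and 11.26 in control. The shTSC2 arrays lay apart, and those of shTSC2-adapted lay on either side of control. SLC38A2 fell in shTSC2 (-0.90, SE 0.13, 1.86-fold, adjusted p = 0.00333) and stood higher in shTSC2-adapted, against shTSC2, by 0.86 (SE 0.13, adjusted p = 0.00734). Both calls held under all 17 alternatives tried (adjusted p up to 0.0473 and 0.0423). SLC38A1, its relative SNAT1, had 11.07 and 10.90 in shTSC2-adapted, 10.46 and 10.82 in shTSC2, and 10.92 and 10.81 in control. One shTSC2 array was low and the other within the control range, and the change was -0.22 (95% interval -0.55 to 0.10, adjusted p = 0.309). Without shTSC2 2, the shTSC2-adapted level was above shTSC2 and passed (0.53, adjusted p = 0.0364), against 0.34 with all arrays (adjusted p = 0.162).

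SLC1A4 encodes ASCT1, an exchanger of alanine, serine and cysteine. Its values were 7.24 and 7.60 in shTSC2-adapted, 6.31 and 6.69 in shTSC2, and 7.26 and 7.12 in control, with the shTSC2 arrays below all others. It fell in shTSC2 (-0.69, SE 0.17, adjusted p = 0.0250) and stood 1.89-fold higher in shTSC2-adapted, against shTSC2 (0.92, SE 0.17, adjusted p = 0.0139). The first of these did not pass without shTSC2 1 (adjusted p = 0.0789), control 1 (0.165) or control 2 (0.110), nor the other without shTSC2-adapted 2 (0.0728). SLC1A5, its relative ASCT2 and a main route of glutamine, had 9.03 and 9.16 in shTSC2-adapted, 8.75 and 8.92 in shTSC2, and 9.33 and 8.97 in control. The shTSC2 arrays were the lowest, by a small gap, and the change of -0.32 did not pass (95% interval -0.64 to 0.01, adjusted p = 0.165). The other, dimmer SLC1A5 set stood at 0.14 (adjusted p = 0.609 with every probe set tested), opposite in sign.

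SLC7A1 encodes CAT1, the main carrier of arginine and lysine, and works without a heavy chain. It had 9.04 and 9.09 in shTSC2-adapted, 8.49 and 8.84 in shTSC2, and 9.38 and 9.22 in control. The 3 groups did not overlap, with shTSC2-adapted in between. SLC7A1 fell in shTSC2 cells (change -0.64, SE 0.13, adjusted p = 0.0150), and with control 1 or control 2 left out the difference did not pass (0.127 and 0.0740). The values for shTSC2-adapted were 0.40 against shTSC2 (adjusted p = 0.101; 0.57 and 0.0234 without shTSC2 2) and -0.23 against control (adjusted p = 0.552). SLC6A9, the glycine transporter GLYT1, had 6.78 and 7.13 in shTSC2-adapted, 6.64 and 6.88 in shTSC2, and 7.11 and 7.10 in control. The shTSC2 arrays lay below control without passing (-0.34, adjusted p = 0.135), and those of shTSC2-adapted were spread from near shTSC2 to control.

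**Figure D2:**
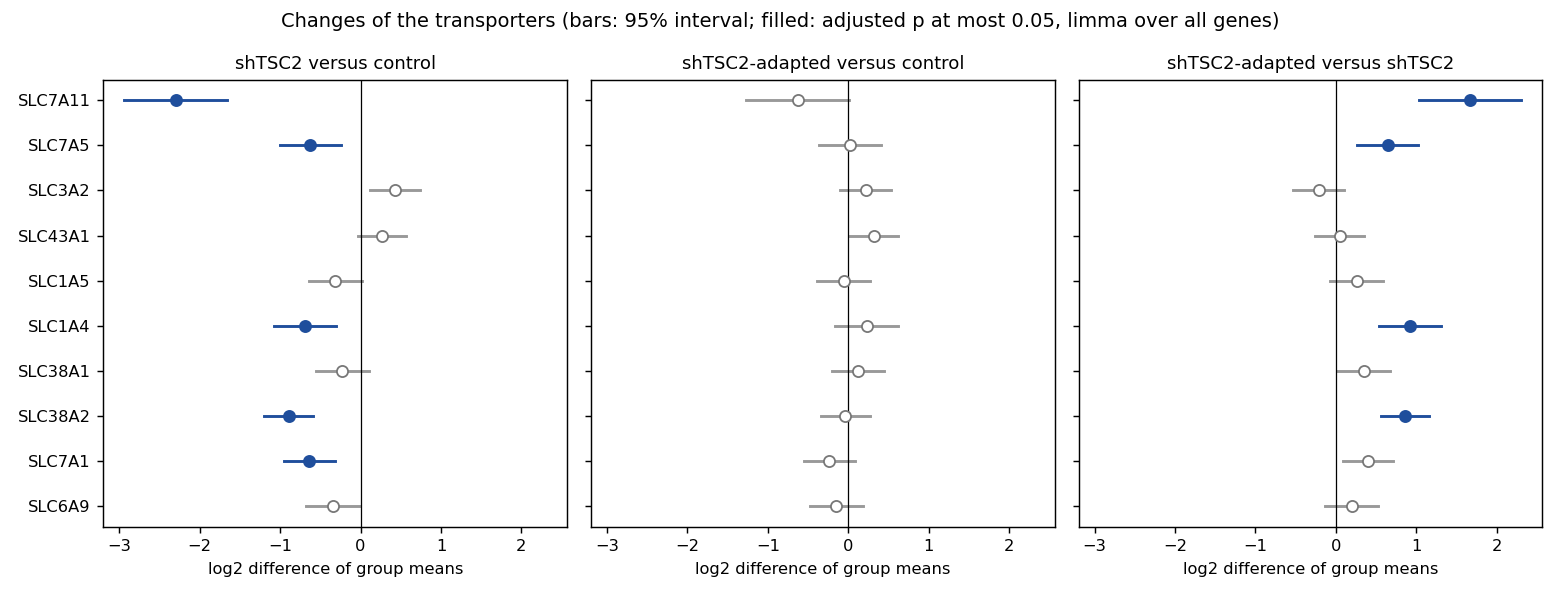
Log2 differences of group means for the 10 transporters in the 3 comparisons, with 95% intervals; filled points passed at an adjusted p of 0.05 (limma). SLC7A11, SLC38A2, SLC1A4 and SLC7A5 are filled left of 0 in shTSC2 against control and right of 0 in shTSC2-adapted against shTSC2, and no point is filled in shTSC2-adapted against control.

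Counting arrays, 7 of the 10 had both shTSC2 arrays below both control arrays and 2 had them above, where 29.6% and 32.4% of all genes did so. Between shTSC2-adapted and shTSC2, 7 were above without overlap and 1 below (SLC3A2), beside 25% and 27.1% of all genes. The 10 genes span 13.7 kb (SLC1A5) to 86.3 kb (SLC7A1) in the reference, SLC38A2 being short (14.6 kb) and SLC7A11 longer (78.3 kb). With the trend of change against gene span taken out, the same 5 genes fell in shTSC2, with -2.18 for SLC7A11 (adjusted p = 0.00215) and -0.95 for SLC38A2 (adjusted p = 0.00343). Between shTSC2-adapted and shTSC2, SLC7A5 then stood at an adjusted p of 0.0600, and the other 3 calls held.

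Other amino acid transporters of the plasma membrane were measured beside the 10. Of 31 in shTSC2 against control, 2 rose, 1 fell and 28 did not pass, around a median of 0.05. Over all genes 6.87% were called higher and 13.9% lower. SLC1A1, a glutamate transporter also able to carry cysteine, fell by 1.25 (adjusted p = 0.000596), with 7.37 and 7.33 in shTSC2-adapted, 6.58 and 6.36 in shTSC2, and 7.71 and 7.73 in control. SLC36A4, a proton-independent transporter of proline and tryptophan, rose by 0.82 (adjusted p = 0.00136), and SLC1A2, a glutamate transporter with dim signal (4.31 and 4.33 in control), by 0.47 (adjusted p = 0.0309). Between shTSC2-adapted and shTSC2, SLC1A1 (0.88) and SLC7A6 (0.49), the y+LAT2 light chain, were higher and SLC36A4 was lower (-0.45), the other 28 not passing. There 9.25% of all genes were called higher and 3.24% lower. In shTSC2-adapted against control none of the 31 passed, where 0.261% of all genes did.

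Of 11 lysosomal and endomembrane genes in shTSC2 against control, 2 rose, 1 fell and 8 did not pass, a share called near that of all genes (20.8%). SLC38A9, the lysosomal arginine sensor of mTORC1, fell by 1.05 (adjusted p = 0.00119), while CTNS, which exports cystine from lysosomes, and MFSD12, needed for cysteine import into them, rose by 0.46 and 0.40, MFSD12 not passing in 11 of 17 alternatives. SLC38A9 stood higher in shTSC2-adapted, against shTSC2 (0.74, adjusted p = 0.00774). Of 12 mitochondrial carriers, 3 rose, 2 fell and 7 did not pass in shTSC2, beside 6.87% of all genes called higher and 13.9% lower. The aspartate-glutamate carriers SLC25A12 and SLC25A13 fell (-0.99 and -0.46), and both were higher in shTSC2-adapted cells (0.87 and 0.60 against shTSC2). SLC25A15, an ornithine carrier, and SFXN2, a sideroflexin, rose by 0.95 and 0.72 in shTSC2.

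**Figure D3:**
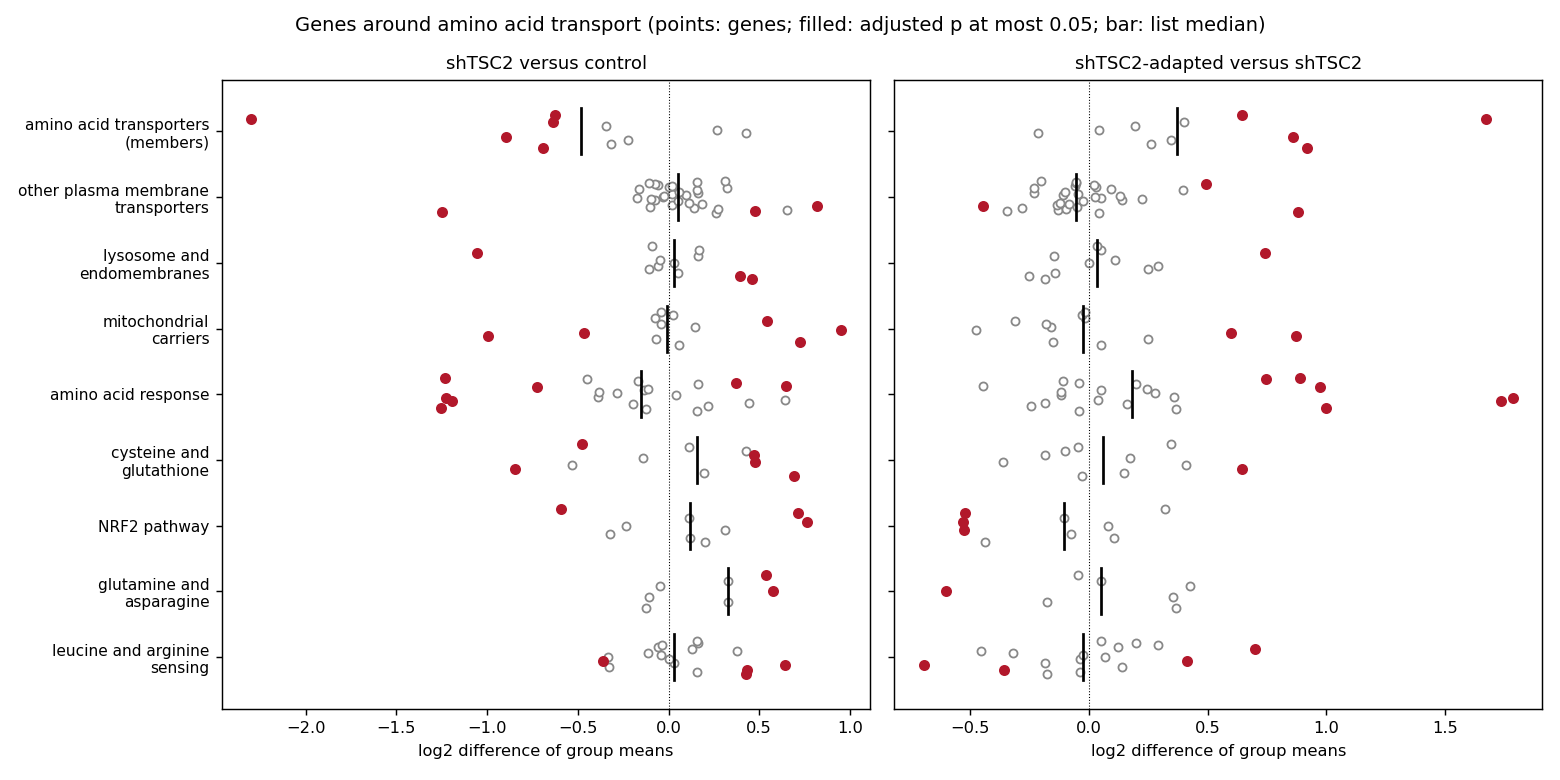
Log2 differences of all measured genes of 9 lists in shTSC2 against control (left) and shTSC2-adapted against shTSC2 (right); filled points passed at an adjusted p of 0.05 (limma) and bars are list medians. The members' median is -0.49 on the left and 0.37 on the right, and medians of the other lists lie between -0.15 and 0.33 on the left.

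ATF4 moved the same way as the transporters that fell, on its brighter probe set. That set had 10.41 and 10.27 in shTSC2-adapted, 9.29 and 9.39 in shTSC2, and 10.61 and 10.58 in control. It fell in shTSC2 (-1.25, SE 0.10, adjusted p = 0.000524) and rose in shTSC2-adapted, against shTSC2, by 1.00 (adjusted p = 0.00249). The other ATF4 set gave -0.24 and 0.41 and did not pass (adjusted p = 0.399 and 0.244 with every probe set tested). Of 22 genes of the amino acid response in shTSC2 against control, 5 fell, 2 rose and 15 did not pass, around a median of -0.15. The shares of all genes were 13.9% lower and 6.87% higher. Besides ATF4, VLDLR, a lipoprotein receptor, fell by 1.23, DDIT4, an inhibitor of mTORC1, by 1.23 and CHAC1, which degrades glutathione, by 1.19, while the biosynthetic enzymes PYCR1 and SHMT2, of proline and serine metabolism, rose (0.65 and 0.37). Against shTSC2, 6 of the 22 in shTSC2-adapted were higher and none lower, with CHAC1 (1.74) and DDIT4 (1.78) leading. Over all genes 9.25% were higher and 3.24% lower there. ASNS, the asparagine synthetase and a classic ATF4 target, stood at -0.12 in shTSC2 and did not pass (adjusted p = 0.506).

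NFE2L2, the gene of NRF2, did not pass in shTSC2 against control (-0.24, adjusted p = 0.188), with 9.61 and 9.38 in shTSC2-adapted, 9.38 and 9.45 in shTSC2, and 9.60 and 9.70 in control. Of 9 genes of the NRF2 pathway, the targets NQO1 and SQSTM1 rose (0.77 and 0.71) and SRXN1, which repairs peroxiredoxins, fell (-0.59). Against shTSC2, the shTSC2-adapted levels of NQO1 (-0.53), SQSTM1 (-0.52) and MAFG, a small partner of NRF2 (-0.53), were lower. There 9.25% of all genes were called higher and 3.24% lower. The other MAFG sets gave -0.50 and -0.36 and did not pass (adjusted p = 0.109 and 0.119 with every probe set tested). In that test the brightest MAFG set stood at 0.0855. Of 10 genes that make or use cysteine and glutathione, 3 rose and 2 fell in shTSC2. For this and the NRF2 list, the shares of all genes were 6.87% higher and 13.9% lower in shTSC2 against control. GCLC, the catalytic subunit of the first step of glutathione synthesis, fell by 0.84 (adjusted p = 0.00690) and stood higher in shTSC2-adapted, by 0.65 against shTSC2 (adjusted p = 0.0298). TXNRD1, a thioredoxin reductase, fell by 0.47, while CHAC2, which degrades glutathione, and GPX4, which uses it to reduce lipid peroxides, rose by 0.69 and 0.47.

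**Figure D4:**
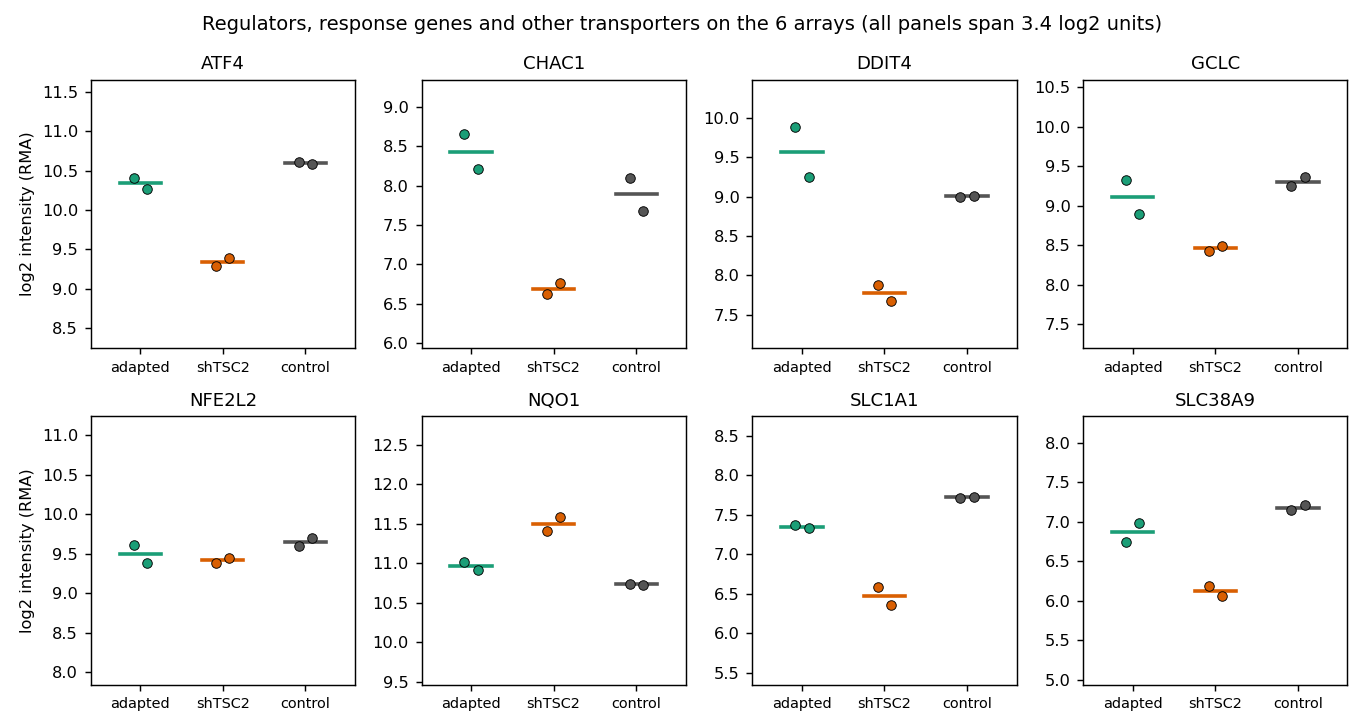
Log2 RMA intensity of 8 genes around amino acid transport in the shTSC2-adapted, shTSC2 and control groups; points are the 2 arrays of a group and lines the group means. ATF4, CHAC1, DDIT4, GCLC, SLC1A1 and SLC38A9 are lowest on the shTSC2 arrays, NQO1 is highest there, and NFE2L2 varies by less than the other genes.

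Of 7 measured genes of glutamine, glutamate and asparagine metabolism, GLUL, the glutamine synthetase, and PPAT, which spends glutamine in purine synthesis, rose in shTSC2 (0.57 and 0.54) and none fell. GLUL was lower in shTSC2-adapted than in shTSC2 (-0.60, adjusted p = 0.0149), with 9.79 and 9.78 in shTSC2-adapted, 10.51 and 10.26 in shTSC2, and 9.78 and 9.84 in control. The other GLUL set gave 0.405 in shTSC2 against control and -0.385 here, and did not pass (adjusted p = 0.0752 and 0.123 with every probe set tested). In that test the brighter set stood at 0.0345 and 0.0536. Of 17 genes that report leucine and arginine to mTORC1, 3 rose and 1 fell in shTSC2, among them the Ragulator subunits LAMTOR4 (0.65) and LAMTOR2 (0.43), and LARS1, the leucyl-tRNA synthetase (-0.36). Beside both of these lists, 6.87% of all genes were called higher and 13.9% lower in shTSC2 against control, or 20.8% in either direction. RRAGD, a Rag GTPase, was higher in shTSC2-adapted than in control (0.83, adjusted p = 0.0384) and than in shTSC2 (0.70, adjusted p = 0.00758). The difference from control did not pass with log2(intensity + 16) (adjusted p = 0.0633), the replicate block (0.0752) or every probe set tested (0.256). No other gene of these 8 lists passed in shTSC2-adapted against control.

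Of 34 named genes outside the 10 that passed in shTSC2 against control, 15 passed under every alternative run for them (17, or 15 for C10orf12), among them TSC2, ATF4, SLC1A1, SLC36A4, SLC38A9, SLC25A12, VLDLR, CHAC1, NQO1 and SQSTM1. Without control 1, 14 did not pass (SLC1A2, CTNS, MFSD12, SFXN2, SLC25A13, SHMT2, GPX4, TXNRD1, SRXN1, GLUL, PPAT, LAMTOR4, LAMTOR2 and LARS1, adjusted p = 0.0530 to 0.225). Without control 2, the same genes except SRXN1 and, besides, SLC25A15, PYCR1, CHAC2, GCLC and DDIT4 did not (adjusted p = 0.0522 to 0.273). MFSD12, SLC25A13, CHAC2, GPX4 and LARS1 did not pass without shTSC2 1 (0.0544 to 0.114), SLC1A2 and PPAT without shTSC2 2 (0.0515 to 0.0890), and MFSD12 and LARS1 without either shTSC2-adapted array (0.0548 to 0.0651). Between shTSC2-adapted and shTSC2, 11 of 24 passed under every alternative run for them, among them ATF4, CHAC1, DDIT4, VLDLR, SLC1A1, SLC38A9 and RRAGD. SLC36A4, NQO1, GLUL, LAMTOR4, SLC7A6, MAFG and ARHGAP29 did not pass with either shTSC2-adapted or either control array left out (adjusted p = 0.0504 to 0.142). Leaving out an array of the group that is not compared does not alter the difference itself, only the arrays that estimate the spread. Most of the named genes were picked because they passed or resembled SLC7A11 on these arrays, so the tallies describe picked genes only. RSRC1, C10orf12, ZSWIM6 and SRGAP2, picked for that likeness, passed under every alternative in both comparisons, and ARHGAP29 in shTSC2 against control only. SLC7A6 was also lost without shTSC2 2, MAFG without shTSC2 1, and GCLC without any array but shTSC2-adapted 2 (up to 0.109). SLC25A12 (0.0520) and SQSTM1 (0.0645) were lost without shTSC2-adapted 1, and SLC25A13 without either shTSC2-adapted array (up to 0.0720). TSC2, lower in shTSC2-adapted than in control, and RRAGD, higher, did not pass with either array of those groups left out (0.0973 to 0.480).

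**Figure D5:**
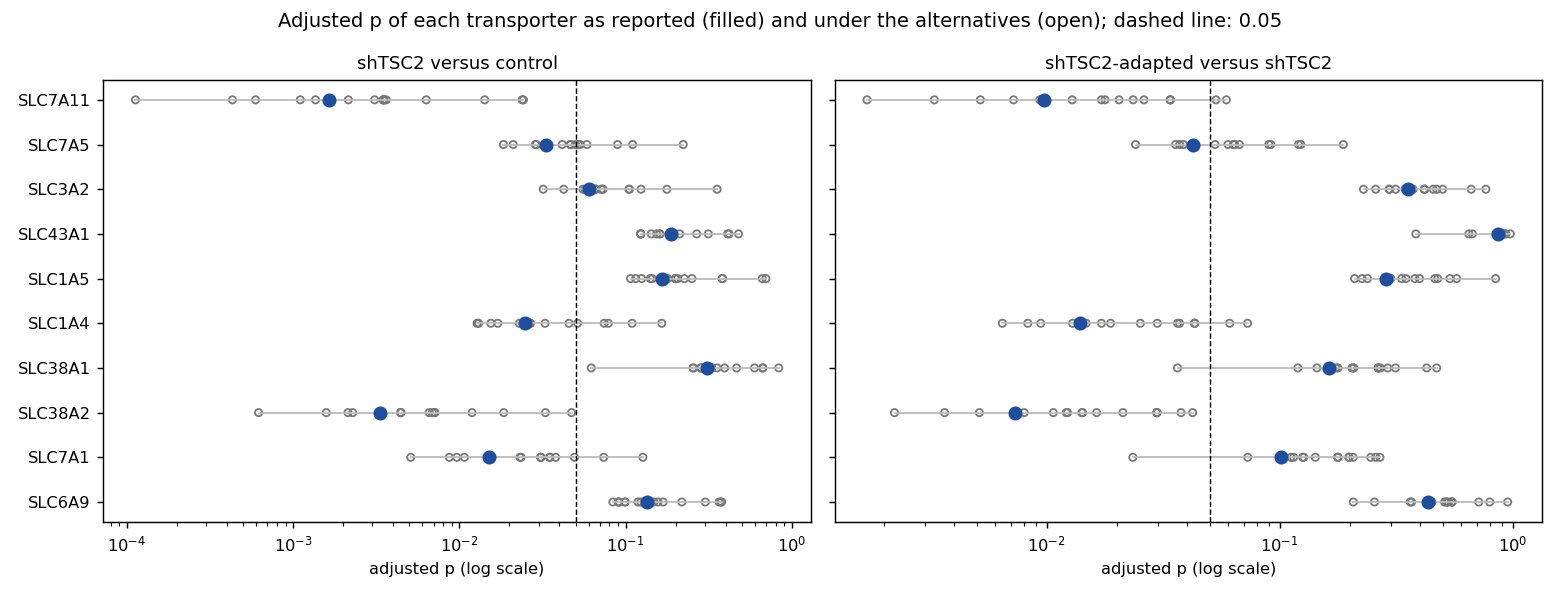
Adjusted p (log axis, limma) of each of the 10 transporters in shTSC2 against control (left) and shTSC2-adapted against shTSC2 (right); filled points are the values given above, open points the alternatives, and the dashed line is 0.05. SLC38A2 lies left of the line throughout in both panels, and SLC7A5 crosses it in both.

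The genes whose profile over the 6 arrays lay nearest to that of SLC7A11, each centred on its mean, were RSRC1, a splicing-related protein, ARHGAP29, C10orf12, ZSWIM6 and SRGAP2, a regulator of neuronal migration. Their root mean square distances from SLC7A11 were 0.22 to 0.29 log2 units. RSRC1, the nearest, had 7.96 and 7.72 in shTSC2-adapted, 6.19 and 6.45 in shTSC2, and 8.40 and 8.19 in control. All 5 were lower in shTSC2 than in control (-2.21 to -1.87), which follows from choosing them for likeness to SLC7A11. The genes with a span in the reference were longer than SLC7A11, at 146 kb (ARHGAP29) to 436 kb (RSRC1), and SRGAP2 has near-identical copies whose signal its probe set may share. Likeness over 6 arrays of 3 groups describes these arrays only.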

How the data were processed

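Total RNA of 6 Du145 samples was labelled with biotin for expression arrays. The authors deposited a linear intensity for each probe set, which the submitters' processing notes credit to RMA. Its version, the probe definition and the genome build were not given in the sources used here. Quantile normalization, a usual step of RMA, would take out part of a shift common to most genes. Log2 of every value lay within 6.99e-10 of a number with 2 decimals, which were analysed. Arrays have no read depth, and their number limits the precision. Median intensities were 58.1 to 63.1, and values near the floor (5.10 to 5.90) say little about change.

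Of 33297 probe sets, 19460 had 1 gene symbol, 1754 several and 12083 none in the platform annotation. RefSeq's GRCh38.p14 tables, used for names, spans and promoters, held the identifiers of 19429. None of the sets with several symbols named one of the 10 genes. Cross-hybridisation of SLC7A5 with its pseudogenes was not tested. The brightest set per gene was kept, which left 18417 genes.

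Groups came from the labels. All 6 arrays entered 1 linear model (limma 3.58.1, R 4.3.3) with moderated tests and Benjamini-Hochberg adjustment over 18417 genes, tested on simulated data. The members and gene lists were chosen with earlier results of these data known. Of each list, at most the 2 largest rises and 2 largest falls that passed in a comparison were named, besides the 10 genes, TSC2, ATF4, NFE2L2 and the 5 nearest profiles to SLC7A11. ASNS, PTPRC and the other markers were named besides. ASNS was chosen after its values were seen. Lists held 31 plasma membrane, 11 lysosomal and 12 mitochondrial carriers, 22 response, 12 glutathione, 10 NRF2, 11 glutamine and 19 sensing genes, of which 10, 9, 7 and 17 of the last 4 were measured. ASNS and SESN2 are each on 2 lists. Of 5 luminal prostate markers, 2 were measured (KLK2 and KLK3), and neither passed.

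Alternatives were quantile normalization, median centring of arrays, leaving out genes below the median level, log2(intensity + 16), every probe set tested, the mean of a gene's sets, only the 4 arrays compared, a replicate block, an intensity trend, array weights, removal of the gene length trend and leaving out each array in turn.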

Additional observations from a re-analysis of the deposited data

How the results depend on the processing

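Of 10 genes, 5 passed in shTSC2 against control, 3 with every probe set tested and 2 to 5 with an array left out. In shTSC2-adapted against shTSC2, 4 passed, 1 with every probe set tested and 2 to 6 with an array left out. In shTSC2-adapted against control 0 passed under any alternative. No change of the named genes reversed in sign with a call. SLC38A2 passed throughout, and SLC7A11 too except for shTSC2-adapted against shTSC2 with every probe set tested (0.0533) and without shTSC2-adapted 1 (0.0590). In shTSC2 against control, SLC7A5 did not pass with quantile normalization (0.0520), log2(intensity + 16) (0.0533) or every probe set tested (0.0894), nor SLC1A4 with quantile normalization (0.0514) or every probe set tested (0.0744). In shTSC2-adapted against shTSC2, SLC7A5 did not pass in 12 of 17 alternatives and SLC1A4 not with every probe set tested (0.0610). Testing every probe set adjusts over 33297 tests in place of 18417, and also estimates the pooled spread anew. The cause of the lost calls was not tested.

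The labels number the arrays of each group and do not say whether equal numbers mark a pairing or batch. Deviations of same-numbered arrays correlated at 0.21 (shTSC2-adapted with shTSC2), -0.19 (shTSC2-adapted with control) and -0.10 (shTSC2 with control), which cannot decide it. With the replicate block 5, 0 and 3 of the 10 genes passed in shTSC2 against control, shTSC2-adapted against control and shTSC2-adapted against shTSC2, where SLC7A5 stood at 0.0633.

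Over all genes, 3833 passed in shTSC2 against control (1266 higher, 2567 lower), 1891 and 2111 with quantile normalization, 869 and 2962 with median centring, and 1175 to 3895 in all with an array left out. In shTSC2-adapted against shTSC2, 2300 passed (1703 higher, 597 lower), 1345 and 942 with quantile normalization, 1113 with only the 4 arrays compared, 1170 with every probe set tested, and 837 to 2600 with an array left out. In shTSC2-adapted against control, 48 passed, 199 with median centring, 121 with dim genes left out, 16 with log2(intensity + 16), 248 with only the 4 arrays compared, 1 with the replicate block, 437 with array weights, 0 with every probe set tested, and 0 to 248 with an array left out.

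Outside the 10, calls lost in shTSC2 against control were SLC1A2, MFSD12, SLC25A13, CHAC2, GPX4, PPAT and LARS1 with every probe set tested (adjusted p = 0.0536 to 0.0828), MFSD12, SLC25A13, SHMT2, GPX4, TXNRD1 and LARS1 with the gene length trend removed (0.0523 to 0.123), MFSD12, SHMT2 and LAMTOR2 with median centring (0.0621 to 0.107), SLC25A13 and LARS1 with quantile normalization (0.0663 to 0.116), MFSD12 and LARS1 with the 4 arrays compared (0.0548 to 0.0651) or the replicate block (0.0593 to 0.0627), MFSD12 with an intensity trend (0.0525) and SLC1A2 with log2(intensity + 16) (0.0589). In shTSC2-adapted against shTSC2, SLC36A4, GCLC, NQO1, GLUL, LAMTOR4, LAMTOR2, LARS1, SLC7A6, MAFG and ARHGAP29 were lost with every probe set tested (0.0536 to 0.0978) or the 4 arrays compared (0.0504 to 0.121), and GCLC, LARS1 and SLC7A6 with quantile normalization (0.0508 to 0.0716). LAMTOR2 or LARS1 was also lost in 5 other settings with all arrays (0.0571 to 0.118). In shTSC2-adapted against control, TSC2 was lost with the replicate block (0.0515) and every probe set tested (0.244).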
